A study of Homo sapiens with 18 samples.

Results

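The genes followed here are 10 genes of WNT signalling at the cell surface and in its feedback, chosen by gene symbol from a table of 30954 genes. They were the WNT ligands WNT5A and WNT5B, the Frizzled receptors FZD1, FZD2, FZD4, FZD6, FZD7 and FZD8, and the feedback inhibitors DKK1 and AXIN2. All 10 genes had a row in the table of H2052 cells, and 4 of the 10 had a row in the table of H226 cells. Read counts per gene were measured by RNA sequencing of polyadenylated RNA in 2 human pleural mesothelioma cell lines, after 24 h with the TEAD inhibitor VT107 at 1 µM or with its solvent DMSO. VT107 blocks the palmitoylation of TEAD proteins, through which the Hippo pathway effectors YAP and TAZ reach DNA. The study asked how Hippo pathway mutant cells respond to TEAD inhibition, and how loss of NF1, a negative regulator of RAS, alters that response.

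H2052 (NF2 and LATS2 mutant) was studied as parental cells and as NF1 mutant cells, each in DMSO and in VT107, with 3 libraries in each of the 4 groups. The NF1 mutant cells carried Cas9 and a pool of NF1 guide RNAs and had been selected with puromycin, so they are a pooled population in the NF2 and LATS2 mutant background, and which guide cut in which cell was not recorded in the labels. H226 (NF2-/-) was studied unedited, with 3 libraries in DMSO and 3 in VT107. The 3 libraries of a group are biological replicates by the study's own description. Library names of the NF1 mutant cells carried another prefix than those of the parental cells, so genotype and library set cannot be told apart.

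WNT proteins are secreted lipid-modified ligands that bind the cysteine-rich domain of Frizzled receptors, which are membrane proteins with several transmembrane segments. With the co-receptors LRP5 or LRP6, this halts the destruction complex built on AXIN and APC, and β-catenin then activates TCF/LEF target genes, among them AXIN2 and DKK1, which feed back on the pathway. WNT5A and WNT5B mostly act without β-catenin, through Frizzled receptors and ROR or RYK co-receptors, on cell shape, polarity and migration, and WNT5A and WNT5B have also been tied to YAP and TAZ activity in other cells.

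Total counts were 10950284 to 13418485 per parental H2052 library, 3285363 to 5489092 per NF1 mutant library and 1387223 to 1726786 per H226 library. CPM is a gene's count scaled to the size of its library. NF1 itself was counted 377 to 867 times in parental DMSO libraries (34.1 to 67.1 CPM). In NF1 mutant DMSO libraries it was counted 70 to 77 times (12.5 to 17.8 CPM). The log2 fold change was −1.78 (SE 0.27, adjusted p = 0.00229, edgeR's quasi-likelihood test). NF1 mutant VT107 library 1 stood apart: it correlated at r = 0.805 and 0.830 with the other two of its group, which correlated with each other at 0.975. The number 3 libraries of parental cells also stood off from their groups (r of 0.949 to 0.951 in DMSO and 0.920 to 0.927 in VT107, against 0.993 and 0.985 between the other two). They held less NF1 too, at 34.1 CPM in DMSO (67.1 and 61.7 in numbers 1 and 2) and 26.0 CPM in VT107 (59.6 and 55.2). The reason was not tested. Of 10 mesothelial markers, 8 to 10 exceeded 1 CPM in each H2052 library, with MSLN at 12.9 to 71.9 CPM and WT1 at 18.7 to 49.3 CPM. The mesothelial markers CALB2 (0 to 8.22 CPM, median 0.578) and UPK3B (0.285 to 1.46 CPM, median 0.791) were low. PTPRC, a leukocyte marker, was at 3 counts or fewer and EPCAM, an epithelial one, at 5 counts or fewer in every H2052 library. Single genes of those lists were present throughout, the leukocyte-listed CORO1A (9.43 to 27.6 CPM) and CD68 (2.35 to 26.4 CPM) and the epithelial keratin KRT7 (36.7 to 280 CPM), as were the fibroblast-listed THY1 (248 to 434 CPM) and COL1A1 (82.0 to 246 CPM), and their part in the results was not tested.

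Per unit of gene length, the ligand WNT5B and the antagonist DKK1 exceeded the other 8 genes in all 4 H2052 groups. The scale used to compare genes was CPM per kilobase of exon. The exon lengths used exceed the whole hg19 span of some genes, FZD8 and FZD1 among them. The order of genes at near levels is therefore uncertain. In parental DMSO cells WNT5B stood at 66.1 ± 1.92 CPM per kb (SD, n = 3 here and throughout) and DKK1 at 55.8 ± 6.43. The 2 leading receptors followed, FZD6 at 10.5 ± 0.0333 and FZD2 at 8.80 ± 4.30 CPM per kb, and their ranges over libraries overlapped. WNT5A, the closest relative of WNT5B, was at 1.34 ± 0.145 CPM per kb. FZD4 (0.796), FZD7 (0.716) and FZD8 (0.674) came next, with overlapping ranges, and FZD1 (0.240) and AXIN2 (0.0575) came last, also with overlapping ranges.

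**Figure D1:**
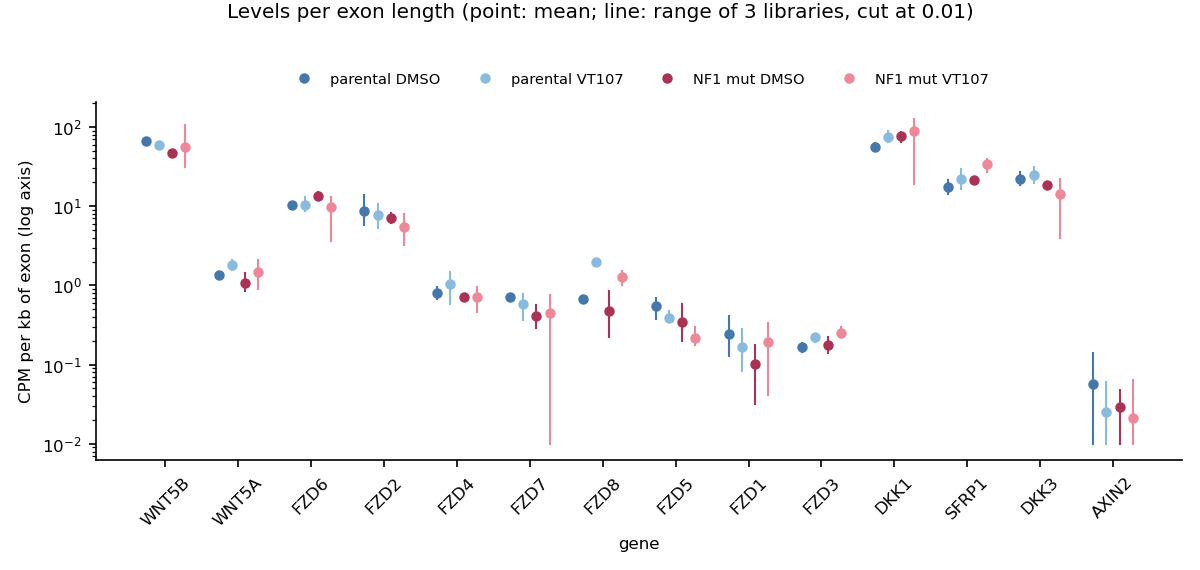
Level in CPM per kb of exon (log axis) of the 10 genes, with FZD3, FZD5, SFRP1 and DKK3 for comparison, in the 4 H2052 groups; points are means and lines are ranges of 3 libraries, with values under 0.01 drawn at 0.01. Among the 10 genes WNT5B and DKK1 are at the top and AXIN2 at the bottom in every group, and FZD8 moves from 0.674 to 1.96 CPM per kb between parental DMSO and parental VT107 libraries.

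The order of the levels changed for DKK1 and WNT5B and for FZD8. DKK1 stood above WNT5B in parental VT107 cells (75.7 ± 12.6 against 58.4 ± 4.60 CPM per kb) and in NF1 mutant DMSO cells (76.7 ± 11.2 against 47.1 ± 2.50), without overlap of the ranges. In NF1 mutant VT107 cells the ranges of the DKK1 level (88.6 ± 60.2) and the WNT5B level (56.6 ± 44.0) overlapped. That overlap came from library 1, where DKK1 was at 19.3 and WNT5B at 107 CPM per kb, while DKK1 was at 127 and 119 and WNT5B at 31.0 and 31.4 CPM per kb in libraries 2 and 3. FZD8 moved from place 8 of 10 in parental DMSO to place 5 in parental VT107 cells. There its level of 1.96 ± 0.0476 CPM per kb overlapped that of WNT5A (1.83 ± 0.269). In NF1 mutant cells FZD8 moved from place 7 to place 6 (0.475 ± 0.331 and 1.29 ± 0.25). These places and the overlap with WNT5A hold for the exon length of 4030 bases taken for FZD8. That length exceeds the whole hg19 span of the gene (chr10:35927177-35930362), so another length could change them.

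Within the family of 10 Frizzled genes, FZD6, a receptor known from planar cell polarity, and FZD2, a receptor that can bind WNT5A, made up most of the summed level per length. FZD6 held 47.6% in parental DMSO, 46.2% in parental VT107, 59.6% in NF1 mutant DMSO and 50.3% in NF1 mutant VT107 cells, and FZD2 held 37.9%, 33.9%, 30.8% and 30.8%. FZD8, a receptor of WNT/β-catenin signalling, held 3.08% ± 0.678 in parental DMSO and 9.06% ± 2.03 in parental VT107 cells. Its share was 2.02% ± 1.25 in NF1 mutant DMSO and 8.67% ± 5.40 in NF1 mutant VT107 cells, where library 1 held 14.7% and the other two held 4.14% and 7.22%. In both genotypes the highest DMSO share of FZD8 (3.65% and 3.41%) lay below the lowest VT107 share (6.92% and 4.14%). All shares rest on the exon lengths used, and those of FZD8 would be larger with a shorter length for that gene. FZD9 and FZD10 had 0 counts in all 12 H2052 libraries, and FZD3 and FZD5 had 8 to 48 and 4 to 66 counts. Among 19 WNT ligand genes, WNT5B held 92.0% ± 0.799, 91.6% ± 1.06, 91.0% ± 1.28 and 90.3% ± 6.48 of the summed level in the same order of groups.

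**Figure D2:**
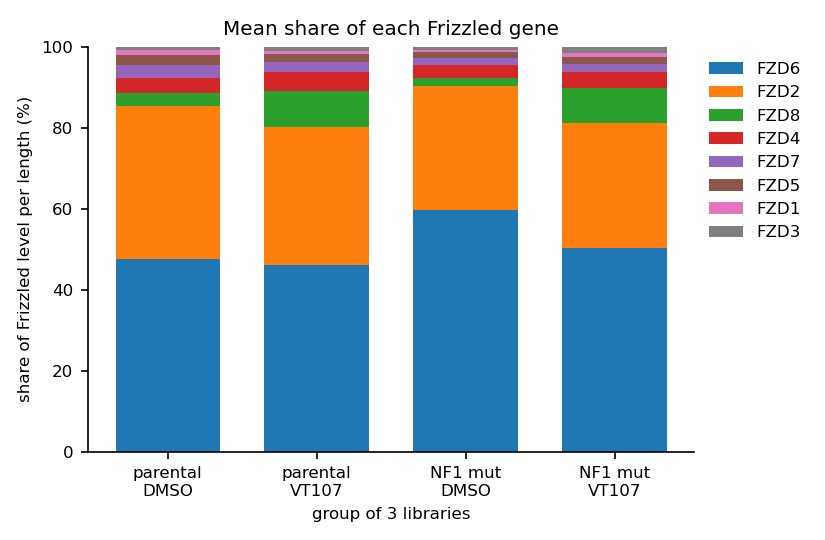
Share of each Frizzled gene in the summed CPM per kb of the 10 Frizzled genes (percent), as the mean of 3 libraries in each of the 4 H2052 groups. FZD6 and FZD2 fill most of each bar, and the share of FZD8 is 3.08% and 2.02% in DMSO against 9.06% and 8.67% in VT107.

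Promoter sequences are given for FZD8, DKK1 and WNT5B, the genes that passed the test in an H2052 comparison. RefSeq promoters were examined for 6 of the 10 genes. Each is 300 bases of GRCh38.p14 from upstream of a start site to just after it, read 5′ to 3′ on the strand of the gene. Promoters of FZD2, FZD6, FZD7 and AXIN2 were not examined, so nothing can be said about whether they exist or hold motifs. Shown are 4 windows of 3 genes. They lie at chr10:35642247-35642546 (FZD8, − strand), chr10:52314031-52314330 (DKK1, + strand), chr12:1616806-1617105 and chr12:1628981-1629280 (WNT5B, + strand, with 2 start sites in RefSeq). Capitals mark a match to the TEAD motif GGAATG on either strand.
FZD8: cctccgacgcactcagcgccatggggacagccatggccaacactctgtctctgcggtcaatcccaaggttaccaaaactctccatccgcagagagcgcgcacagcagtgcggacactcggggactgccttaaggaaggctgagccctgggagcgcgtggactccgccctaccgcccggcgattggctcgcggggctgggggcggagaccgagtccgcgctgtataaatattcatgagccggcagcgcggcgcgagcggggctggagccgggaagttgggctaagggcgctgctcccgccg
DKK1: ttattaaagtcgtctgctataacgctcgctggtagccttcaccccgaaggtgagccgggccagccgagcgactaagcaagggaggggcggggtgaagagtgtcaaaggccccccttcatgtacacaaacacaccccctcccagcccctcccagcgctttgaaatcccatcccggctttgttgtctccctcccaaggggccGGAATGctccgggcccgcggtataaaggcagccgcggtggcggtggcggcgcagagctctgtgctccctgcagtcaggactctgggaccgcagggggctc
WNT5B, first start: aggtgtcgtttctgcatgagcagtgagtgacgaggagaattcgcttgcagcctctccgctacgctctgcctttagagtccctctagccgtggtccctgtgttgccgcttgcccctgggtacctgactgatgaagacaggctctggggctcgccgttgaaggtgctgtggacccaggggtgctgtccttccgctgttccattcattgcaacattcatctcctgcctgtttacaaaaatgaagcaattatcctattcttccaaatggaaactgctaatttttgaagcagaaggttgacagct
WNT5B, second start: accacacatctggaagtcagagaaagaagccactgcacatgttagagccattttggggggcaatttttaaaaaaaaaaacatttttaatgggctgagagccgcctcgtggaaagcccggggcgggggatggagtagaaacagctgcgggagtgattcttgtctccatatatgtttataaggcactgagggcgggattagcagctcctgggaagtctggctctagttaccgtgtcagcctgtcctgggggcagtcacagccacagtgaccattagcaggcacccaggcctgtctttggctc

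The DKK1 window held the only TEAD motif match among the windows of the 6 genes, beginning 50 bases before the start site. GGAATG on either strand was found in 14.03% of all 35116 RefSeq promoters. The TCF/LEF motif CTTTGAT and the AP-1 motif TGANTCA, found in 2.62% and 7.71% of all promoters on either strand, had no match in these windows. GC content was 67.0% in the FZD8 window, 63.7% in the DKK1 window and 51.7% and 52.0% in the WNT5B windows, with a median of 58.7% over all promoters. A match is a description of letters and no measurement of binding.

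VT107 against DMSO in parental H2052 cells asked how TEAD inhibition alone moved these genes, and FZD8 stood out: its level rose 2.94-fold, a change that passed the test with replicate numbers paired and did not pass without pairing. No other of the 10 genes passed either test. FZD8 (chr10:35927177-35930362 in hg19, − strand) was counted 34, 41 and 28 times in the 3 DMSO libraries, or 2.69, 2.92 and 2.53 CPM. In VT107 it was counted 110, 90 and 111 times, or 7.69, 8.04 and 8.0 CPM. Every VT107 library lay above every DMSO library, and the spread within each group was small (2.71 ± 0.195 and 7.91 ± 0.192 CPM). The log2 fold change was +1.56 (SE 0.22), with an unadjusted p of 0.000193 and an adjusted p of 0.916 in edgeR's quasi-likelihood test without pairing, which called 0% of the 12891 genes tested (474 at an unadjusted p under 0.05, and 32 by DESeq2, FZD8 among them at an adjusted p of 1.87e-05). In parental cells the number 3 libraries of DMSO and VT107 deviated together from the others, whereas numbers 1 and 2 could not be matched by their deviations. With the replicate number as a block the same fold change of +1.56 (SE 0.23) had an adjusted p of 0.0167, in a fit that called 1.67% of genes (109 higher and 106 lower in VT107). Without both number 3 libraries the fold change was +1.52 with an adjusted p of 0.0603.

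**Figure D3:**
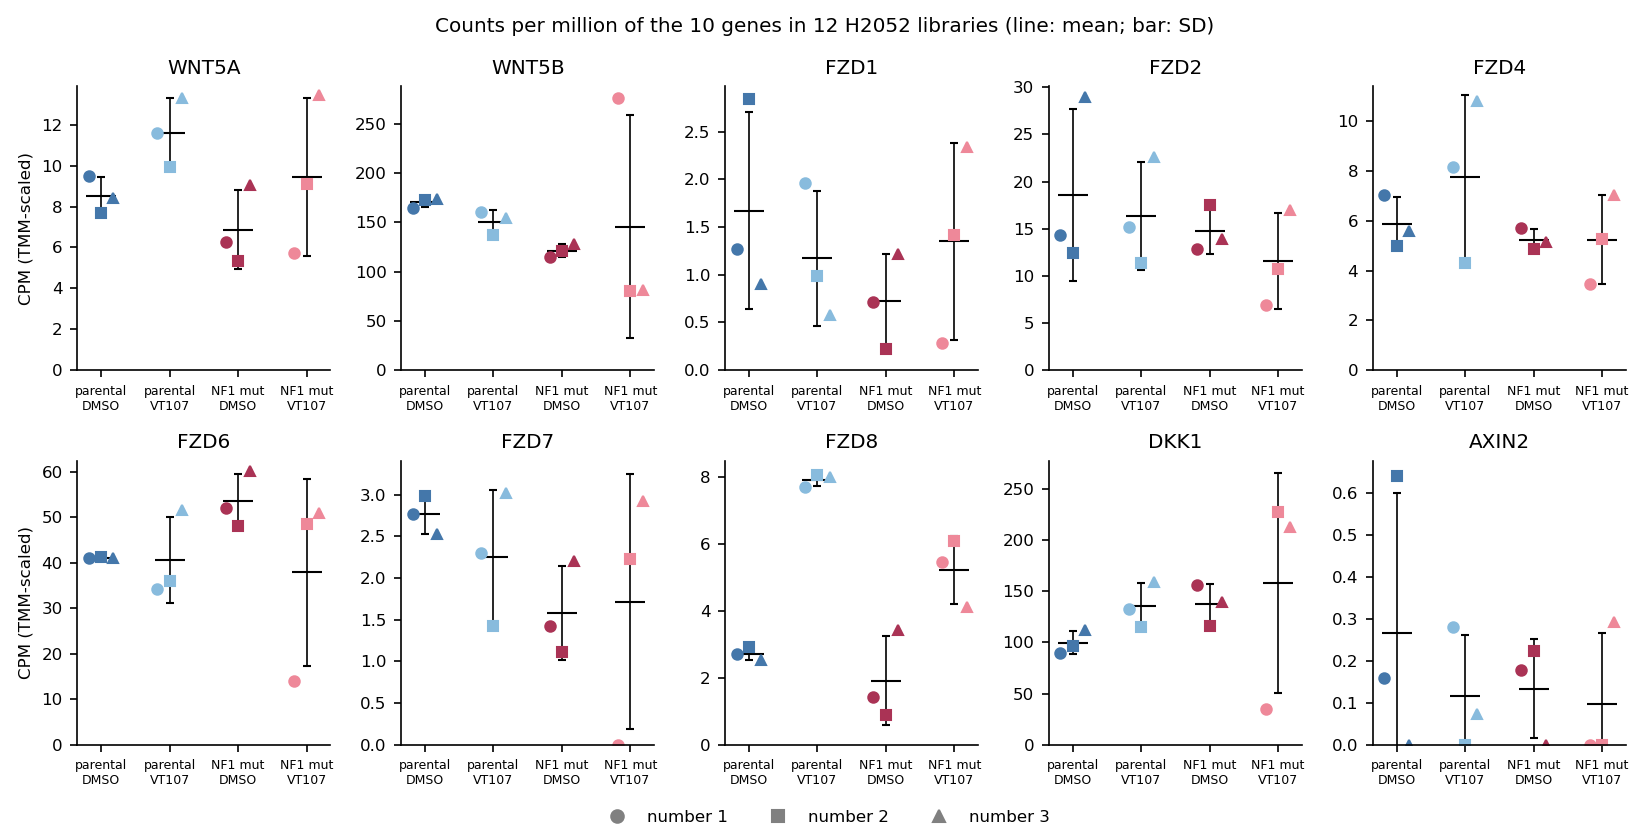
CPM (linear axes from 0) of each of the 10 genes in each of the 12 H2052 libraries, with a marker for each library number, and the mean and SD of each group as a line and a bar. FZD8 is at 2.53 to 2.92 CPM in parental DMSO and 7.69 to 8.04 CPM in parental VT107 libraries, and NF1 mutant VT107 library 1 lies far from its group for DKK1, WNT5B and FZD6.

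DKK1 is a secreted antagonist that binds LRP5 and LRP6 and keeps them from WNT. Its parental VT107 and DMSO libraries did not overlap. For such a separation of 3 from 3 libraries, the smallest p of an exact permutation test is 0.1. The share of all genes that separated in this way was not counted. DKK1 (chr10:54074056-54077802 in hg19, + strand) stood at 90.1, 97.0 and 113 CPM in DMSO and at 132, 115 and 159 CPM in VT107. All VT107 libraries were above all DMSO libraries, by a margin of 115 against 113 CPM at the nearest, and the log2 fold change of +0.46 (SE 0.19) did not pass the test, with an adjusted p of 0.999 unpaired and 0.0732 with the block. WNT5A (chr3:55499743-55523973, − strand), a ligand of the β-catenin-independent branch, stood at 9.51, 7.69 and 8.40 CPM in DMSO and at 11.6, 9.91 and 13.3 CPM in VT107. Its groups did not overlap either, and its log2 fold change was +0.47 (SE 0.21, adjusted p = 0.218 with the block in edgeR's quasi-likelihood test).

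WNT5B (chr12:1639057-1756409, + strand) lay at lower CPM in VT107, without a call. It stood at 165, 173 and 174 CPM in DMSO and at 160, 137 and 154 CPM in VT107, so its highest VT107 library lay just below its lowest DMSO library. The log2 fold change was −0.16 (SE 0.14), and the adjusted p with the block was 0.462. The libraries of FZD1, FZD2, FZD4, FZD6 and FZD7 overlapped between DMSO and VT107, and their log2 fold changes lay between −0.50 and +0.43. AXIN2 was too low to be tested, so 9 of the 10 genes were. In bulk RNA, fewer cells with a transcript and less transcript per cell cannot be told apart.

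In NF1 mutant cells the same comparison rested on NF1 mutant VT107 library 1, the library that stood apart. With all 6 libraries none of the 7 genes tested passed, as none of all 11605 genes did (0%, with 612 at an unadjusted p under 0.05 and 20 called by DESeq2). Without that library, DKK1 rose and WNT5B fell, in a fit that called 198 of 12443 genes (1.59%).

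FZD8 stood at 1.43, 0.888 and 3.42 CPM in NF1 mutant DMSO libraries (8, 4 and 14 counts) and at 5.46, 6.07 and 4.10 CPM in VT107 libraries (19, 30 and 14 counts). Every VT107 library lay above every DMSO library in CPM, at a depth where 3 counts amounted to 0.535 to 0.879 CPM. The nearest libraries, number 3 of each group, both held 14 counts. Their gap of 3.42 against 4.10 CPM thus came from scaling to library size alone. The log2 fold change was +1.47 (SE 0.49, adjusted p = 0.774, unadjusted p = 0.0193), and +1.48 (SE 0.47, adjusted p = 0.145) without VT107 library 1, in edgeR's quasi-likelihood test, so the call was not made in NF1 mutant cells. The difference of the FZD8 responses between the genotypes, tested as an interaction over all 12 libraries, was −0.06 on the log2 scale (SE 0.56, adjusted p = 1.00). That standard error leaves a wide interval around no difference, and a missed threshold does not show equal responses.

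DKK1 stood at 156, 116 and 140 CPM in NF1 mutant DMSO libraries and at 34.5, 228 and 213 CPM in VT107 libraries 1, 2 and 3. VT107 library 1 lay below every DMSO library and the other two lay above all of them. The log2 fold change was +0.21 (SE 0.61, adjusted p = 0.905) with all libraries and +0.69 (SE 0.14, adjusted p = 0.0195) without library 1. WNT5B showed the opposite layout, at 115, 121 and 128 CPM in DMSO and at 276, 79.9 and 80.8 CPM in VT107. Its log2 fold change was +0.25 (SE 0.49, adjusted p = 0.862) with all libraries and −0.58 (SE 0.13, adjusted p = 0.0303) without library 1 in edgeR's quasi-likelihood test. Without that library the responses of NF1 mutant and parental cells differed by +0.25 (SE 0.25) for DKK1 and by −0.41 (SE 0.18, unadjusted p = 0.0397) for WNT5B on the log2 scale, and no gene of the 10 had an adjusted p under 0.05 for that difference. With all 12 libraries these differences were −0.23 (SE 0.69) and +0.43 (SE 0.55), in a fit that called 0% of 11432 genes (78 at an unadjusted p under 0.05, 0 by DESeq2).

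The same library was low for FZD6 (14.1 CPM, against 48.5 and 51.0 in its group) and FZD2 (6.90 CPM, against 10.7 and 17.0), and it held no FZD7 count. WNT5A stood at 6.24, 5.33 and 9.04 CPM in DMSO and at 5.75, 9.10 and 13.5 CPM in VT107, with overlapping groups and a log2 fold change of +0.46 (SE 0.40). The part that this library's deviation plays in the results was not tested beyond the values given without it.

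NF1 mutant against parental cells in DMSO asked how the edited cells differed before the inhibitor. WNT5B was lower and DKK1 was higher in NF1 mutant cells, 2 of the 8 genes tested, where 27.4% of all 12475 genes tested were called (1557 higher and 1863 lower). A count of 2 in 8 is close to that background. None of the 5 Frizzled receptors tested was called.

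WNT5B stood at 165, 173 and 174 CPM in parental and at 115, 121 and 128 CPM in NF1 mutant DMSO libraries. The groups did not overlap, and the means were 170 ± 4.96 and 121 ± 6.44 CPM. The log2 fold change was −0.48 (SE 0.11, adjusted p = 0.0132, edgeR's quasi-likelihood test). The call was lost without NF1 mutant DMSO library 1 (adjusted p = 0.0734) or library 2 (adjusted p = 0.0564), and it was kept when any of the other 4 libraries was left out (adjusted p of 0.000241 to 0.0453). With all 12 H2052 libraries in 1 fit the adjusted p was 0.495 for WNT5B and 0.645 for DKK1, so neither was called.

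DKK1 stood at 90.1, 97.0 and 113 CPM in parental and at 156, 116 and 140 CPM in NF1 mutant DMSO libraries, again without overlap. The means were 99.9 ± 11.5 and 137 ± 19.96 CPM, and the log2 fold change was +0.47 (SE 0.15, adjusted p = 0.0471, edgeR's quasi-likelihood test). This adjusted p lay just inside the threshold: it was 0.183, 0.0506 and 0.127 without NF1 mutant DMSO library 1, 2 or 3, and 0.158 and 0.136 without parental DMSO library 1 or 2, while it was 0.000349 without parental DMSO library 3. It also moved to 0.0689 with the replicate block, in a fit that called 23.9% of genes.

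FZD6 stood at 41.0, 41.2 and 41.0 CPM in parental and at 52.1, 48.2 and 60.1 CPM in NF1 mutant libraries. All NF1 mutant libraries lay above all parental ones, with a log2 fold change of +0.39 (SE 0.14, adjusted p = 0.0663), which became 0.0121 without parental DMSO library 3. FZD7, a receptor that WNT/β-catenin and polarity signalling share, was counted 35, 42 and 28 times in parental libraries and 8, 5 and 9 times in NF1 mutant libraries. At 2.77, 2.99 and 2.53 against 1.43, 1.11 and 2.2 CPM its groups did not overlap, and the log2 fold change of −0.81 (SE 0.34) had an adjusted p of 0.107 in edgeR's quasi-likelihood test. FZD6 and FZD7 thus separated by genotype in opposite directions and without a call. The share of all genes that separated in this way was not counted, in a comparison that called 27.4% of genes.

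FZD2, FZD4, FZD8 and WNT5A overlapped between genotypes in DMSO. FZD2 stood at 14.3, 12.4 and 29.01 CPM in parental and at 12.8, 17.5 and 13.9 CPM in NF1 mutant libraries, so parental DMSO library 3 alone lay far above the rest, and the log2 fold change of −0.32 (SE 0.33) became +0.14 without it. The log2 fold changes were −0.15 (SE 0.25) for FZD4, −0.53 (SE 0.44) for FZD8 and −0.31 (SE 0.25) for WNT5A.

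**Figure D4:**
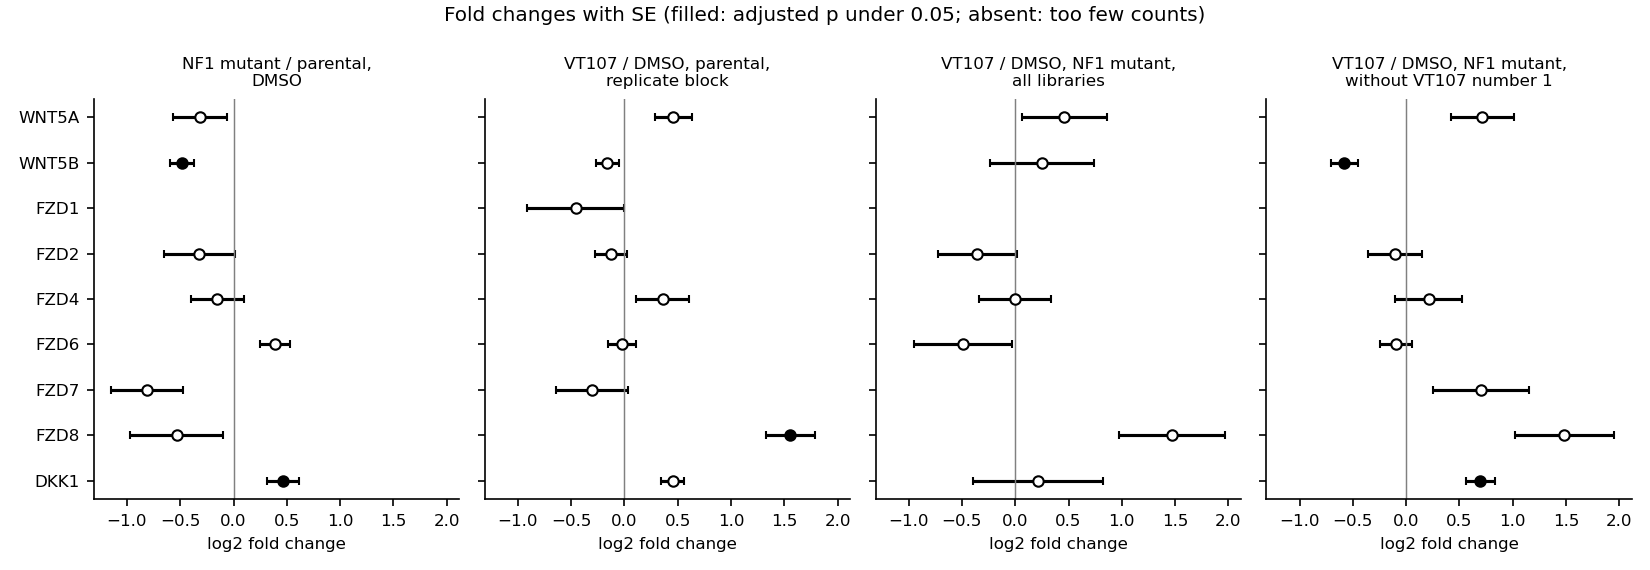
Log2 fold change with its standard error for each gene tested, for NF1 mutant against parental cells in DMSO, VT107 against DMSO in parental cells with the replicate block, and VT107 against DMSO in NF1 mutant cells with and without VT107 library 1; filled points have an adjusted p under 0.05. FZD8 lies at +1.56 in parental and at +1.47 and +1.48 in NF1 mutant cells, filled in parental cells alone, while DKK1 and WNT5B are filled for genotype and, without VT107 library 1, for VT107 in NF1 mutant cells.

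NF1 mutant against parental cells in VT107 gave no call among 7 of the 10 genes, nor among all 11654 genes tested (0%, with 1945 at an unadjusted p under 0.05 and 682 called by DESeq2). FZD8 stood at 5.46, 6.07 and 4.10 CPM in NF1 mutant and at 7.69, 8.04 and 8.0 CPM in parental VT107 libraries. The FZD8 groups did not overlap, and its log2 fold change was −0.62 (SE 0.35, adjusted p = 0.399, edgeR's quasi-likelihood test). DKK1 and WNT5B overlapped between the groups, with log2 fold changes of +0.21 (SE 0.61) and −0.08 (SE 0.50). Without that library they were +0.69 (SE 0.23, adjusted p = 0.156) and −0.91 (SE 0.21, adjusted p = 0.0780), in a fit that called 1.46% of 12573 genes and none of these 10.

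The lowest 2 genes rested on few counts, and AXIN2 was tested in none of the H2052 comparisons. AXIN2, a scaffold of the destruction complex and a widely used readout of β-catenin activity, was counted 2, 9 and 0 times in parental DMSO, 4, 0 and 1 times in parental VT107, 1, 1 and 0 times in NF1 mutant DMSO and 0, 0 and 1 times in NF1 mutant VT107 libraries. It never exceeded 0.641 CPM, and 3 counts amounted to 0.210 to 0.879 CPM in these libraries, so a change of AXIN2 was not detectable at this depth. FZD1, a receptor of the β-catenin branch, was counted 8 to 40 times in parental and 1 to 8 times in NF1 mutant libraries, with means of 1.67 ± 1.03, 1.17 ± 0.709, 0.719 ± 0.50 and 1.35 ± 1.03 CPM in parental DMSO, parental VT107, NF1 mutant DMSO and NF1 mutant VT107 cells. FZD4, at means of 5.88 ± 1.06, 7.76 ± 3.28, 5.24 ± 0.42 and 5.25 ± 1.79 CPM, and FZD7, at 2.76 ± 0.230, 2.25 ± 0.80, 1.58 ± 0.560 and 1.72 ± 1.53 CPM in the same order, overlapped between the groups compared, except FZD7 between genotypes in DMSO. PRSS23, which overlaps FZD4 on the opposite strand, had 3201 to 6845 counts in parental and 179 to 1715 counts in NF1 mutant libraries. Its part in the FZD4 counts of H2052 cells was not tested.

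The rest of the WNT pathway was read from lists of its ligands, receptors and intracellular parts, 109 genes beside the 10. In NF1 mutant against parental DMSO cells, 71 of the 109 were tested, of which 10 were higher and 12 were lower, or 31.0% against 27.4% of all genes, with a median log2 fold change of −0.08 (−0.01 over all genes). By number, though not by share of the genes tested, the most calls fell on Dishevelled, β-catenin and the destruction complex. There 5 of 16 tested were higher and 2 were lower (median +0.28). Among them were DVL2, a transducer below Frizzled (+1.46, SE 0.15, adjusted p = 0.000319), the scaffold AXIN1 (+0.86, SE 0.18, adjusted p = 0.00837) and the kinase GSK3A (+0.91, SE 0.20, adjusted p = 0.0113), while the scaffold APC was lower (−0.78, SE 0.17, adjusted p = 0.0111). These genes act in both directions on β-catenin. CTNNB1, which encodes β-catenin and is named here after its values were seen, was higher as well (+0.64, SE 0.14, adjusted p = 0.0122).

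In that comparison 27.4% of all genes tested were called, the share to set beside each list count below, and no list was tested as a set. By gene set enrichment the study reported signatures linked to WNT as elevated in NF1 mutant cells. That measure was not used here, and the counts of single genes do not test it. Of 13 TCF/LEF factors and cofactors tested, 2 were higher and 4 were lower (median −0.22). The corepressor CTBP1 (+0.87) and the factor TCF7L1 (+0.67) were higher, and the corepressors CTBP2 (−1.06) and TLE4 (−1.74) were lower. Of 12 common feedback and target genes, 2 were higher, MYC (+0.88) and DKK1, and 2 were lower, CCND1 (−0.54) and ZNRF3 (−1.72), a ubiquitin ligase that removes Frizzled receptors from the surface. Of 9 ligand and secretion genes, WNT5B and WNT7A (−1.25) were lower and none was higher. Among 10 co-receptors LRP5 was lower (−0.91), and among 3 genes of the R-spondin group RSPO4, a secreted enhancer of WNT signalling, was higher (+1.11) and ZNRF3 was lower. Of 20 planar polarity genes, CELSR3 was higher (+1.81), and DAAM1 (−1.14), CELSR1 (−1.07) and WNT5B were lower. Of 7 Frizzled receptors tested, none was called (median −0.32), and of 3 secreted antagonists tested DKK1 alone was.

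**Figure D5:**
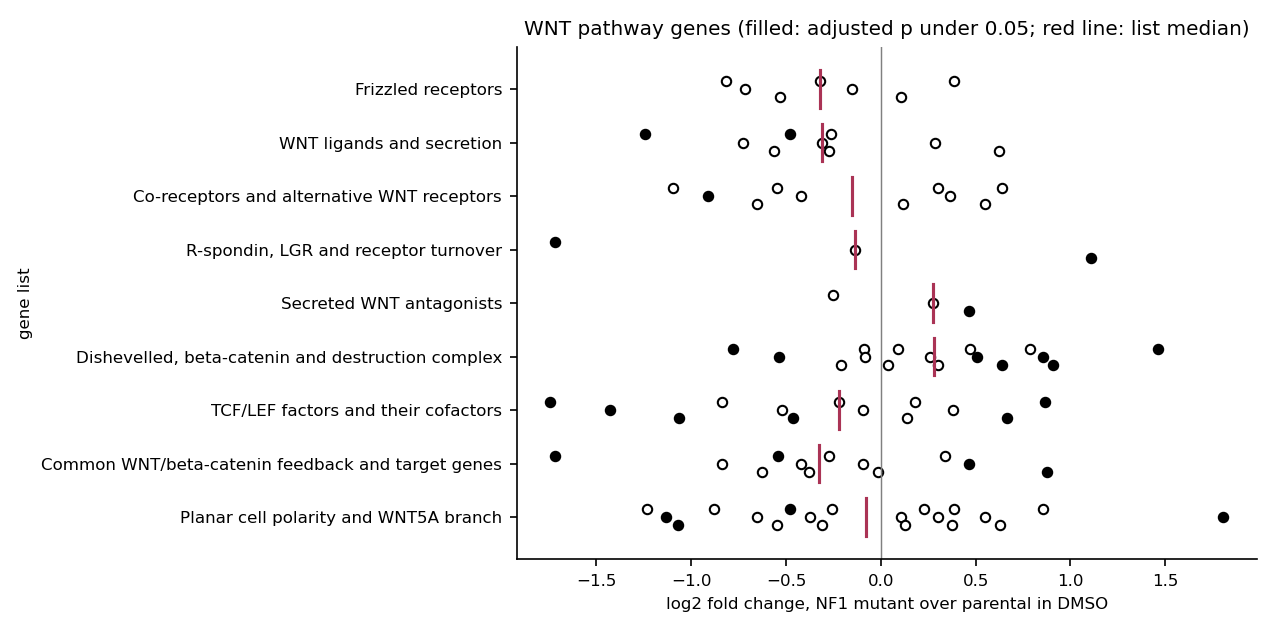
Log2 fold changes of the tested genes of each WNT list for NF1 mutant against parental H2052 cells in DMSO, a point for each gene, with the list median as a red line and genes with an adjusted p under 0.05 filled. Medians run from −0.33 for feedback and target genes to +0.28 for Dishevelled, β-catenin and the destruction complex.

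VT107 against DMSO in parental cells, fitted with the replicate block, called 2 of the 69 other WNT genes tested, or 2.90% against 1.67% of all genes. Both belong to the polarity branch: DAAM1, a formin downstream of Dishevelled (+0.90, SE 0.15, adjusted p = 0.0238), and PRICKLE2, a cytoplasmic polarity protein (+1.13, SE 0.23, adjusted p = 0.0490). No gene of the lists was called for VT107 in NF1 mutant cells, for genotype in VT107 or for the difference of the responses, in fits that called 0% of all genes. Without NF1 mutant VT107 library 1, DVL2 was higher for genotype in VT107 (+1.38, SE 0.21, adjusted p = 0.0356), and the listed genes called for VT107 in NF1 mutant cells were DKK1 and WNT5B.

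In H226 cells, rows were found for WNT5A, WNT5B, FZD4 and FZD6. FZD4, a receptor for WNT ligands and for Norrin, fell in VT107. It was counted 52, 60 and 74 times in DMSO and 42, 20 and 31 times in VT107, or 43.8 ± 12.7 and 18.0 ± 5.06 CPM, without overlap. Its log2 fold change was −1.24 (SE 0.25, adjusted p = 0.000884, edgeR's quasi-likelihood test), in a comparison that called 19.6% of 12765 genes (25.5% with a replicate block). PRSS23, on the opposite strand, overlaps FZD4 by 7166 bases and was lower in VT107 too (−0.61, SE 0.15, adjusted p = 0.00474). Of 28 gene pairs in which an abundant gene lay inside a gene of the other strand, 20 had more H226 counts in the gene that was the minor one in H2052, so reads of FZD4 and PRSS23 cannot be told apart in the H226 table.

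FZD6 was counted 60, 63 and 37 times in H226 DMSO and 80, 59 and 64 times in VT107 libraries (36.5 ± 6.76 and 39.8 ± 3.20 CPM), with overlapping groups. RP11-318M2.2 overlaps FZD6 by 340 bases on the opposite strand. It had 16, 10 and 7 counts in DMSO and 28, 12 and 19 in VT107, so the limit given for FZD4 holds for FZD6 in those bases. WNT5B was counted 62, 75 and 82 times in DMSO and 92, 76 and 71 times in VT107 (51.3 ± 12.2 and 46.9 ± 3.91 CPM), and its groups overlapped too. FBXL14 lies within WNT5B on the opposite strand and had 54, 67 and 74 counts in DMSO and 71, 65 and 63 in VT107, so the WNT5B row of H226 carries the same limit. WNT5A had 0 to 4 counts in the H226 libraries and was not tested. Of the 109 other WNT genes, 58 were tested in H226, of which 5 were higher and 6 were lower in VT107 (18.97%, against 19.6% of all genes), and with the replicate block 10 were higher and 8 lower (31.0%, against 25.5%). These counts carry the same limit for genes that overlap a gene of the other strand. No strand setting was named, and how far strand affects the other H226 rows was not tested. NF1 stood at 505 to 571 CPM in H226 and at 26.0 to 67.1 CPM in parental H2052 libraries, for a reason that was not tested.

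Patterns over the 12 H2052 libraries were compared by the correlation of log2 CPM with 8789 or 8790 genes at a mean log2 CPM of at least 3, as a description in which the libraries of a group and the genotype sets are shared. The genes most like FZD8 were TCEA3 (r = 0.90) and GDF15 (r = 0.88), and these values were 0.91 and 0.88 over 11 libraries without NF1 mutant VT107 library 1. DKK1 was most like VIM and SLC35B2 (both r = 0.98, and 0.95 and 0.94 without that library). WNT5B was most like BOK (r = 0.98) and JDP2 (r = 0.97), with 0.97 and 0.96 without that library. FZD6 was most like COX18 (r = 0.99) and TRAM1 (r = 0.98), with 0.92 and 0.90 without it. FZD2 was most like LIG3 (r = 0.94) and IDH3A (r = 0.92), with 0.89 and 0.88 without it, and WNT5A was most like LYSMD4 (r = 0.93) and AC022692.1 (r = 0.90), with 0.91 and 0.88. The lowest values were those of FZD4 with FBXL17 and TIA1 (both r = 0.84, and 0.78 and 0.77 without that library).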

How the data were processed

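RNA was extracted with Trizol, polyadenylated RNA was sequenced as single-end 75 base reads on a NextSeq500, and reads were demultiplexed with bcl2fastq 2.20.0.422 and assigned to hg19 per the labels. Sources used here name no aligner, counter, annotation or strand setting. The authors deposited raw counts per gene, in 1 table for H2052 (30954 gene IDs, after 63 rows that repeat an ID) and 1 for H226 (19284 gene IDs, 10 repeats). The 16 columns that match no described sample, and the authors' own columns of log2 fold changes and p-values, were not used. The 10 genes and the WNT lists were chosen with earlier results of these data known.

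CPM was computed with edgeR 4.0.16 after TMM scaling in R 4.3.3. Each comparison kept the genes at 0.5 CPM or more in all of its libraries and tested them with edgeR's quasi-likelihood test, adjusted by Benjamini-Hochberg over all genes tested, at a threshold of 0.05. A gene that passed this adjusted threshold is said to be called, or to be higher or lower. Standard errors come from the fold change and its F value. For VT107 against DMSO within a cell line the study's methods name edgeR or limma-voom with quality weights. The filter and edgeR were taken from there and used for all comparisons here. The study reported genes altered by VT107 in parental and in NF1 mutant H2052 cells, where the main fits here called none. It also reported YAP and TAZ targets reduced as proteins, which were not measured here. An absence of calls here does not show an absence of effect. For comparisons between lines the study names a filter of 10 reads in 2 replicates per group, or limma-voom. That filter, limma-voom and the quality weights are among the alternatives. DESeq2 1.42.0, limma 3.58.1, other filters and scalings, a replicate block, thinned counts and each library left out in turn were alternatives. The script was tested on counts simulated with the same spread for all genes and no outlying library, so that test does not cover NF1 mutant VT107 library 1.

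Deviations of parental libraries from their group means correlated at 0.647, 0.526 and 0.817 for equal numbers in DMSO and VT107, so blocked values stand beside those results. Unequal numbers 1 and 2 correlated as highly (0.546 and 0.635), and pairs of number 3 with another number at −0.739 to −0.618, so the pairing rests on number 3. Exon lengths are unions over GENCODE 29 transcripts. The annotation behind the counts is not named, and its lengths may differ from these. For FZD8 (4030 bases) and FZD1 (6963 bases) the length used exceeds the whole hg19 span of the gene. Levels rest on 3285363 to 13418485 counts per H2052 library, and the floor of 3 counts covers counting error only. For every comparison, all 10 genes, the targeted gene, and at most 4 genes of each list with the smallest adjusted p under the threshold were named, and for likeness the 2 genes with the highest Pearson correlation among those with a mean log2 CPM of at least 3 (prior count of 1).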

Additional observations from a re-analysis of the deposited data

How the results depend on the processing

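Of the fold changes given for single genes, 316 values under an alternative kept direction and side of the threshold, 13 fell below it, 11 rose above it and 33 changed sign. Counts moved by over 1.5 times in 44 of 196 cases. The cause was not tested.

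For genotype in DMSO, 2 of the 10 genes were called, against 1 with limma-voom, the 10-count filter, the replicate block or thinned counts, 4 with quality weights, 0 with all 12 libraries in 1 fit, and 0 to 3 when a library was left out. Genes called numbered 6554 with quality weights, 963 with all 12 libraries, 6409 without both parental number 3 libraries, and 1779 to 6409 when a library was left out, the highest without parental DMSO library 3 and the lowest without NF1 mutant DMSO library 1. FZD2 turned to 0.10 with quality weights and 0.14 without both number 3 libraries (−0.56 to 0.14 when a library was left out).

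For genotype in VT107, genes called rose from 0 to 682 with DESeq2, 3599 with quality weights (2 of the 10 genes), 196 without a filter, 1297 with all 12 libraries, 82 without both parental number 3 libraries, 507 with the block and without NF1 mutant VT107 library 1, and 0 to 184 when a library was left out. WNT5B became 0.0272 with DESeq2 and 0.0270 with RLE factors (−0.91 to 0.22 when a library was left out), and DKK1 became −0.19 with limma-voom and −0.14 with the block (−0.14 to 0.69).

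For VT107 in parental cells, genes called rose from 0 to 32 with DESeq2, 18 with quality weights, 215 with the block and 44 without both number 3 libraries, and FZD8 was the 1 of the 10 genes called with DESeq2, quality weights or the block. For VT107 in NF1 mutant cells, they rose from 0 to 20 with DESeq2, 147 with quality weights, 3 with all 12 libraries and 241 with the block and without VT107 library 1 (2 of the 10 genes), and ranged from 0 to 198 when a library was left out, with 0 to 2 of the 10 genes. There DKK1 became −0.19 with limma-voom and −0.12 with the block (−0.15 to 0.69 when a library was left out), and WNT5B became −0.0064 with limma-voom, −0.54 with quality weights, −0.0163 with the block and −0.61 with the block and without library 1 (−0.58 to 0.54).

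For the difference of the responses, FZD8 became 0.0750 with limma-voom, 0.0752 with quality weights, 0.00067 with the block and 0.0183 without both number 3 libraries (−0.39 to 0.61 when a library was left out). DKK1 became 0.18 with quality weights and 0.36 with the block and without NF1 mutant VT107 library 1 (−0.59 to 0.25), and WNT5B became −0.38 and −0.44 (−0.41 to 0.72). In H226, 1646 to 2218 genes were called when a library was left out.

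Equal library numbers did not pair the samples outside parental cells: correlations of deviations were −0.167, −0.213 and 0.158 in NF1 mutant cells, 0.108, −0.115 and −0.004 between genotypes in DMSO, and 0.198, 0.009 and 0.029 in H226. The alternatives without both number 3 libraries, and with the block without NF1 mutant VT107 library 1, were chosen after seeing the data. Depth limits FZD1, FZD7 and AXIN2 most, and NF1 mutant libraries more than parental ones.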
